A study of Mus musculus with 38 samples.

Results

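The endoplasmic reticulum stress genes described here are Hspa5, Hsp90b1, Pdia4, Sdf2l1, Manf, Herpud1, Syvn1, Ddit3, Atf4 and Xbp1. They were taken by gene symbol from the array's annotation, which gave 12 probes for these 10 genes, out of 36607 probes and 17501 genes named by a probe with 1 symbol. Atf4 has 3 probes and every other gene has 1. RNA was measured in whole livers of 20 male mice on 38 two-colour arrays, with 5 mice in each of 4 groups. The knockout (KO) mice of 5 months and of 3 months carried Alb-Cre +/-; Met Fl/Fl, on a strain given as 129SV/C57BL6, so that Cre recombinase, driven by albumin sequences, deletes in hepatocytes the gene for c-Met, which binds hepatocyte growth factor. The control (WT) mice of 5 months and of 3 months carried Alb-Cre +/- alone, on a strain given as B6129. All 4 groups had received a single intraperitoneal dose of N-nitrosodiethylamine (DEN), a liver carcinogen, at 10 micrograms per gram of body weight at 14 days of age. The labels give ages of 20 weeks and 12 weeks, which leaves the interval after dosing unsettled, and the groups are called 5 months and 3 months. Each liver was hybridised against a pool of normal liver RNA (5 wild-type males of 12 weeks), for which the labels give no treatment. A value below is the log2 ratio of liver over that pool, 1 per mouse, so 0 is the level of the pool and 1 is a doubling.

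Ratios were read with Cy5 on top. The labels do not state this likely direction, and were Cy3 on top, every higher below would be a lower. Most mice had an array in each dye orientation, with 5-month KO mice 2 and 3 holding a single array each, corrected for the dye effect of other mice of that age. The liver-in-Cy5 array of 5-month WT mouse 4 correlated at -0.609 to -0.476 with the 10 such arrays of 3 months and at -0.294 to 0.271 with the 8 others of 5 months, so the direction of that array is not settled, although it correlated at 0.698 with the turned Cy3 array of the same mouse. Runs of consecutive array numbers formed 4 series. Series A held all 5-month WT mice and 5-month KO mice 1 and 2, series B held 5-month KO mice 3 to 5, and series C and D each held 3-month mice of both genotypes. Met, the targeted gene, had 1 probe, with a median of -0.621 in KO livers and -0.673 in WT livers of 5 months, where the ranges overlapped, and of -0.554 in KO livers and -0.803 in WT livers of 3 months, where every KO liver was above every WT liver. The labels do not place this probe relative to the deleted part, so whether it can check the genotype is not known, and the KO livers are so named by their labels. Time and array series cannot be told apart, and series B holds KO mice alone. In whole liver, fewer cells of a type and less RNA per cell cannot be told apart. The values are ratios with no brightness behind them, and the number of mice limits their precision.

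Proteins bound for secretion fold in the endoplasmic reticulum, and hepatocytes secrete most plasma proteins. When unfolded proteins build up there, the sensors IRE1, PERK and ATF6 start the unfolded protein response. Its transcription factors XBP1, ATF4 and ATF6 raise the synthesis of chaperones and of the machinery that returns misfolded proteins to the cytosol for degradation, and lasting stress induces the pro-apoptotic factor CHOP, encoded by Ddit3.

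RefSeq promoters of build GRCm38.p6, 250 bases before to 50 bases after the annotated start, were matched for 9 of the 10 genes, all but Manf. They were searched on both strands for the stress response element ERSE (CCAAT, then 9 bases of any kind, then CCACG), for ERSE-II (ATTGG, then 1 base of any kind, then CCACG), and for a C/EBP-ATF response element (TGATG, then 1 base, AA and 1 base of any kind). ERSE letters were in 3 of the 9 promoters (Hspa5, Hsp90b1 and Syvn1), against 0.119% of 32851 promoters of that length. ERSE-II letters were in Herpud1 alone, against 0.0365% of promoters, and the C/EBP-ATF letters were also in Herpud1 alone among the 9, against 3.95%. The 4 promoters with an ERSE or ERSE-II match follow 5′ to 3′ in the direction of the gene. Capitals mark the ERSE matches and, in Herpud1, the ERSE-II match, and no match overlaps another.
Hspa5, chr2:34771840-34772139, plus strand: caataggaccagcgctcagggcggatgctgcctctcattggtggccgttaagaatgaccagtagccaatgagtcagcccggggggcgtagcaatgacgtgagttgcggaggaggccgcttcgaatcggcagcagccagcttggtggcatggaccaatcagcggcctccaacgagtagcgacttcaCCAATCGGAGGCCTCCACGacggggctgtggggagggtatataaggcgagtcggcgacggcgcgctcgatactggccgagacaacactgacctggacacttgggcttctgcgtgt
Hsp90b1, chr10:86705395-86705694, minus strand: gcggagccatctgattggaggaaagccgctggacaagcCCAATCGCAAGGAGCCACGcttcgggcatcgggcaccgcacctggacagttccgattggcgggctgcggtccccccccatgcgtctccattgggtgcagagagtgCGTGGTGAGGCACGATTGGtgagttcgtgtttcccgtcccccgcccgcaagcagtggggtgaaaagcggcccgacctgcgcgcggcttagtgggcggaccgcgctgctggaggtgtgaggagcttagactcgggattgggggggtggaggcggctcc
Syvn1, chr19:6046326-6046625, plus strand: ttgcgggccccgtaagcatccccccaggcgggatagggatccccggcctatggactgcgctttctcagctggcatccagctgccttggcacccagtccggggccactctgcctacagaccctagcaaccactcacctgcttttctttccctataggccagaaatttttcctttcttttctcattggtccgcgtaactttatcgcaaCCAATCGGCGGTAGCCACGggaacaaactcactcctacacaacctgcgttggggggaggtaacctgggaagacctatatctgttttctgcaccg
Herpud1, chr8:94386179-94386478, plus strand: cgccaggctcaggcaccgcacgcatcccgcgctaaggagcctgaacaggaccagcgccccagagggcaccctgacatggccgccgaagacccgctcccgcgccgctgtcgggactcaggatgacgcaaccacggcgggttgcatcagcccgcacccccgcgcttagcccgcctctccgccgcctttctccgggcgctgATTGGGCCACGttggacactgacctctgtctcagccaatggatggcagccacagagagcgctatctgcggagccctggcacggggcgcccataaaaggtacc
The match began 65 bases before the start in Hspa5, 44 in Syvn1 and 52 in Herpud1. Hsp90b1 held 2 matches, at 212 and, on the opposite strand, at 107 bases before the start.

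At 3 months most of the chaperone and degradation genes lay above the normal liver pool in every liver of both genotypes. All 10 livers of that age were above the pool for 8 of the 12 probes, a pattern that 7.47% of all probes showed. By 5 months 7 of the 10 genes, by 8 of the 12 probes, were lower in WT livers, by 0.70 to 1.42 on the log2 scale, and 7.35% of all probes were called lower there. Limma called 0 of the 12 probes between 5 and 3 months in KO livers, against 6.28% of all probes, a share that was 1.14% without 5-month KO mouse 2 and 0.0355% without both mice with a single array. Between the genotypes it called 0 of the 12 at 5 months and 0 at 3 months, against 0.112% and 0.071% of all probes at those ages, and the difference of the time changes was called for 0% of all probes.

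**Figure D1:**
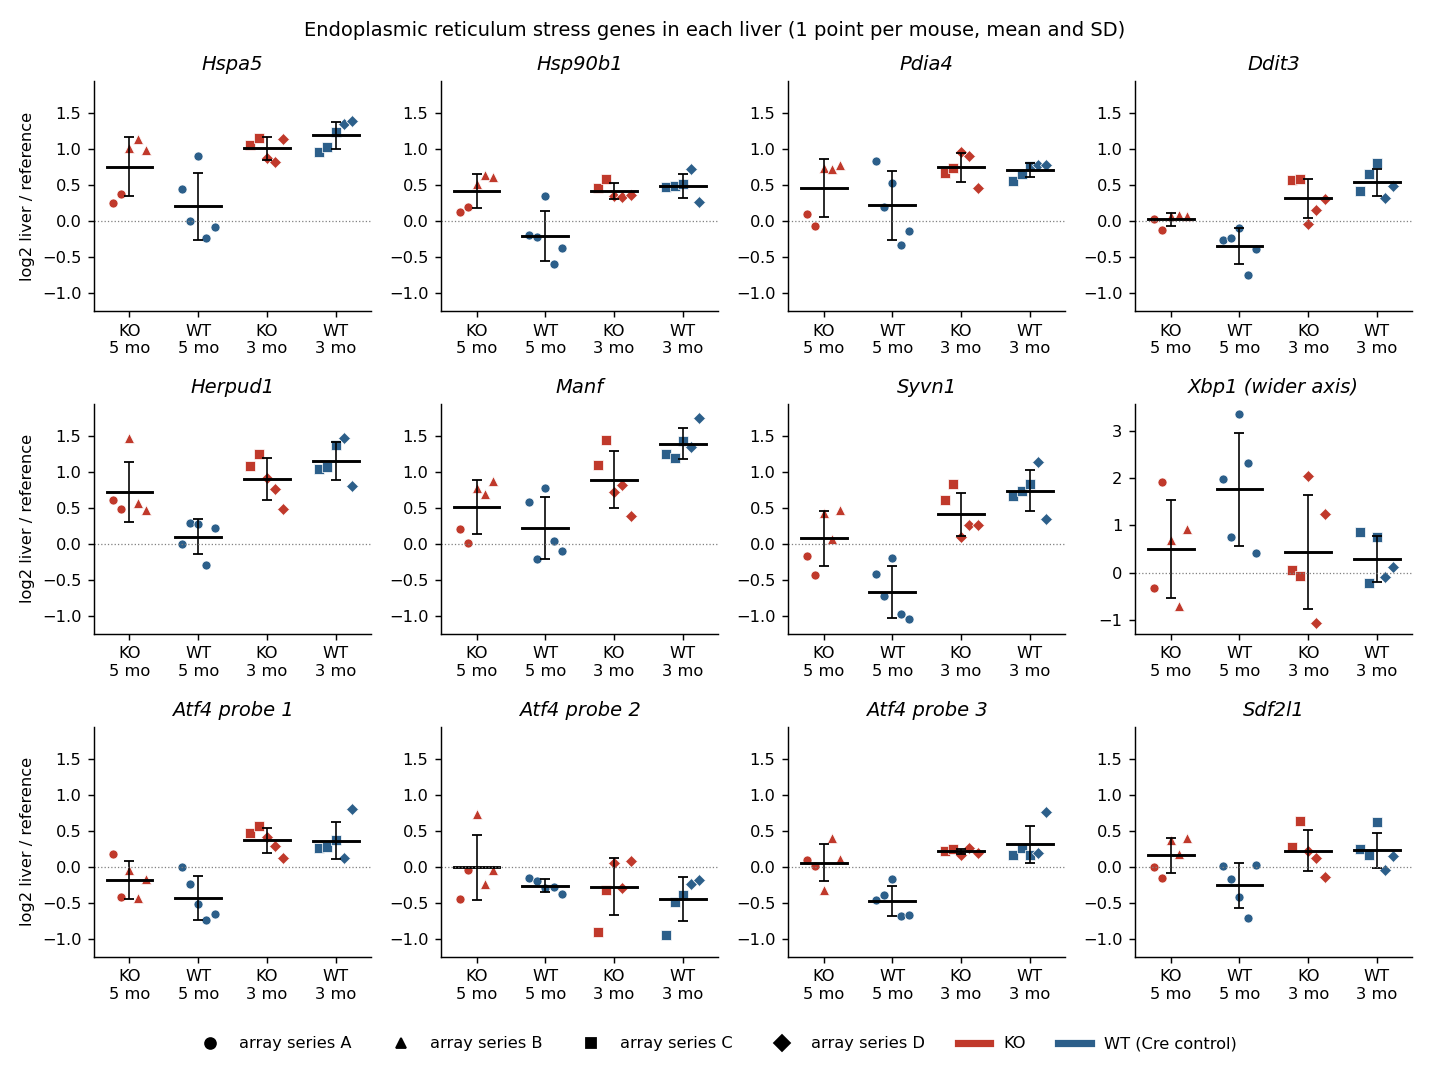
Log2 ratio of liver over the pooled reference for each of the 12 probes, with 1 point per mouse, the bar at the group mean and whiskers of 1 SD (n = 5). Marker shapes give the array series, and Xbp1 has a wider axis. At 5 months WT livers lay near or below 0 for most probes, the 3 KO livers of series B lay above the 2 of series A for 7 probes (10.1% of all probes), and at 3 months both genotypes lay above 0 for 8 probes.

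Hspa5 encodes BiP, the major chaperone of the endoplasmic reticulum and the partner that holds the stress sensors inactive. Its log2 ratios in mice 1 to 5 were 0.25, 0.37, 1.02, 1.14 and 0.99 in 5-month KO livers, against 0.45, -0.0015, 0.91, -0.23 and -0.084 in 5-month WT livers. At 3 months they were 1.07, 1.16, 0.88, 0.82 and 1.15 in KO livers, against 0.96, 1.03, 1.24, 1.35 and 1.39 in WT livers. Every 5-month WT liver was thus below every 3-month WT liver, whereas the KO livers of both ages overlapped. Hspa5 fell in WT livers, with a 5 minus 3 month difference of -0.99 ± 0.21 (SE, n = 5 per group, limma adjusted p = 0.00574). In KO livers the difference was -0.26 ± 0.21 (adjusted p = 0.440).

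Hsp90b1 encodes GRP94, the endoplasmic reticulum member of the HSP90 chaperone family. Its 5-month values were 0.13, 0.19, 0.52, 0.64 and 0.62 in KO livers, against -0.20, -0.22, 0.35, -0.60 and -0.37 in WT livers. The 3-month values were 0.47, 0.59, 0.35, 0.33 and 0.36 in KO livers, against 0.47, 0.49, 0.51, 0.73 and 0.26 in WT livers. All KO livers of 5 months were above the pool, and 4 of the 5 WT livers of that age were below it, with WT mouse 3 overlapping the KO range. Hsp90b1 fell by 0.70 ± 0.16 in WT livers between the ages (SE, limma adjusted p = 0.00749), and the KO difference was 0.0004 ± 0.16.

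Manf encodes a secreted stress-induced factor that also binds BiP inside the endoplasmic reticulum. Its 5-month values were 0.21, 0.018, 0.79, 0.69 and 0.88 in KO livers, against 0.58, -0.20, 0.78, 0.042 and -0.091 in WT livers. Its 3-month values were 1.10, 1.45, 0.72, 0.83 and 0.39 in KO livers, against 1.25, 1.21, 1.44, 1.35 and 1.75 in WT livers. Manf had the highest 3-month WT mean of the 12 probes, 1.40 ± 0.22 (SD, n = 5). It fell by 1.18 ± 0.23 in WT livers between the ages (SE, limma adjusted p = 0.00344), with no overlap, and the KO difference of -0.38 ± 0.23 did not pass (adjusted p = 0.284).

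Pdia4, a protein disulfide isomerase that forms disulfide bonds in new secretory proteins, and Sdf2l1, a BiP-associated component of chaperone complexes, were called in none of the comparisons as fitted. Pdia4 was at 0.11, -0.065, 0.74, 0.73 and 0.78 in 5-month KO livers, against 0.84, 0.20, 0.54, -0.34 and -0.13 in 5-month WT livers, and both groups spread over most of the same range. At 3 months it lay tightly above the pool, at 0.46 to 0.96 in KO livers and 0.56 to 0.78 in WT livers. Its 5 minus 3 month difference in WT livers was -0.49 ± 0.21 (limma adjusted p = 0.108), and without 5-month WT mouse 1 it was -0.64 with an adjusted p of 0.0464. It also passed with each array centred on its median (-0.63, adjusted p = 0.0393), with quantile normalisation (-0.80, adjusted p = 0.0456) and in Cy5 arrays alone (-0.89, adjusted p = 0.00886), and was at -0.082 in Cy3 arrays alone. Of all 36607 probes in WT livers, centring called 6423, quantile normalisation 8316 and Cy5 arrays alone 17546, against 5607 as reported. Differences between ages in arrays of a single orientation still contain the dye effect, which differed between the ages. Its mean for Pdia4 was 0.401 at 3 months and 0.107 at 5 months, and the SD of the mean dye effect over all probes was 0.82 and 0.274. Sdf2l1 ranged over -0.15 to 0.41 in KO livers and -0.72 to 0.021 in WT livers of 5 months. At 3 months it ranged over -0.15 to 0.64 in KO livers and -0.044 to 0.63 in WT livers. Its difference in WT livers was -0.49 ± 0.18 (limma adjusted p = 0.0652). It passed with median centring (-0.63, adjusted p = 0.0237), with quantile normalisation (-0.74, adjusted p = 0.0291) and in Cy3 arrays alone (-0.57, adjusted p = 0.0471). In Cy5 arrays alone it was -0.40 and did not pass (adjusted p = 0.204). With Cy3 arrays not turned, which averages liver ratios of opposite sign, it was at 0.082.

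Both degradation genes changed in WT livers. Herpud1, a membrane protein that organises the complex exporting misfolded proteins, was at 0.61, 0.49, 1.48, 0.57 and 0.48 in 5-month KO livers, against 0.003, 0.30, 0.28, -0.29 and 0.23 in 5-month WT livers. It was the 1 probe of the 12 for which every 5-month KO liver was above every 5-month WT liver, against 2.66% of all probes. KO mouse 3, with a single array, stood highest. At 3 months Herpud1 was at 1.09, 1.25, 0.92, 0.76 and 0.49 in KO livers, against 1.05, 1.07, 1.38, 1.48 and 0.82 in WT livers. It fell by 1.05 ± 0.20 in WT livers (SE, limma adjusted p = 0.00309), and the KO difference was -0.18 ± 0.20 (adjusted p = 0.592).

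Syvn1 encodes HRD1, the ubiquitin ligase at the centre of that export complex, and showed the largest decrease among the 12 probes. Its 5-month values were -0.17, -0.43, 0.44, 0.07 and 0.47 in KO livers, against -0.42, -0.72, -0.19, -0.98 and -1.05 in WT livers. At 3 months they were 0.62, 0.83, 0.10, 0.26 and 0.27 in KO livers, against 0.68, 0.73, 0.83, 1.14 and 0.34 in WT livers. All 5 WT livers of 5 months were below the pool and all 5 of 3 months above it. Syvn1 fell 2.67-fold in WT livers, by 1.42 ± 0.21 on the log2 scale (SE, limma adjusted p = 0.000773). The KO difference was -0.34 ± 0.21 (adjusted p = 0.308).

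Of the transcription factors, Ddit3 and 2 of the 3 Atf4 probes passed the test in WT livers and Xbp1 did not. Ddit3 was at 0.035, -0.13, 0.069, 0.089 and 0.066 in 5-month KO livers, against -0.27, -0.24, -0.093, -0.75 and -0.39 in 5-month WT livers. At 3 months it was at 0.58, 0.59, -0.038, 0.16 and 0.30 in KO livers, against 0.42, 0.65, 0.81, 0.32 and 0.49 in WT livers. The 5-month KO livers sat close to the level of the pool, and all WT livers of that age were below it. Ddit3 fell by 0.89 ± 0.14 in WT livers (SE, limma adjusted p = 0.00137), without overlap. The KO difference of -0.29 ± 0.14 did not pass (adjusted p = 0.203).

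Atf4 encodes the factor translated when PERK or related kinases slow protein synthesis, a step that RNA levels do not measure. Its 3 probes disagreed. Probe 1 was at -0.44 to 0.18 in KO livers and -0.74 to 0.002 in WT livers of 5 months, and at 0.12 to 0.57 in KO livers and 0.12 to 0.80 in WT livers of 3 months. Probe 3 was at -0.32 to 0.41 in KO livers and -0.69 to -0.17 in WT livers of 5 months, and at 0.17 to 0.26 in KO livers and 0.16 to 0.77 in WT livers of 3 months. Both fell in WT livers, probe 1 by 0.80 ± 0.17 (SE, limma adjusted p = 0.00532) and probe 3 by 0.79 ± 0.14 (adjusted p = 0.00266). Probe 2 gave 0.19 ± 0.21 in WT livers (adjusted p = 0.552), and its group means were -0.0068 in KO livers and -0.26 in WT livers of 5 months, and -0.28 in KO livers and -0.45 in WT livers of 3 months. In KO livers probe 1 was the nearest to the threshold of all 12, at -0.55 ± 0.17 with an adjusted p of 0.0510. It passed without 5-month KO mouse 1 (-0.64, adjusted p = 0.0408), and with its value at -0.55 without 3-month WT mouse 5, 5-month WT mouse 1 or 5-month WT mouse 4 (adjusted p = 0.0367, 0.0453 and 0.0473). It also passed with median centring (-0.72, adjusted p = 0.0225), with quantile normalisation (-0.86, adjusted p = 0.0286), in Cy5 arrays alone (-0.72, adjusted p = 0.0327) and without the unsettled array (-0.55, adjusted p = 0.0373). Of all 36607 probes in KO livers, these settings in that order called 2245, 1874, 10207 and 2741, against 2299 as reported.

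Xbp1 encodes the factor that IRE1 activates by splicing its mRNA, and the file does not say which form its probe reads. Its values were -0.32, 1.92, 0.69, -0.71 and 0.92 in 5-month KO livers, against 1.99, 0.76, 3.35, 2.32 and 0.42 in 5-month WT livers. At 3 months they were 0.067, -0.076, 2.04, -1.07 and 1.25 in KO livers, against 0.87, -0.21, 0.75, -0.081 and 0.12 in WT livers. Mice of one group differed by more than 2 log2 units in 3 of the 4 groups, which is wider than for any other probe of the 12. The dye effect of this probe within a mouse also ran from -0.934 to 2.62. Its differences, -1.26 ± 0.60 between KO and WT livers at 5 months (limma adjusted p = 0.473) and 1.48 ± 0.60 between the ages in WT livers (adjusted p = 0.0940), were opposite in sign to those of most other members and did not pass. In Cy5 arrays alone the WT difference of Xbp1 passed, at 1.50 (adjusted p = 0.0269). In that setting 17546 of all 36607 probes passed, 14695 of them higher.

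Between 5 and 3 months in WT livers, the 8 of the 12 probes called lower, with none higher, stood against 15.3% of all probes called in either direction. The median difference over the 12 probes was -0.79, while all 36607 probes had a median of 0.13. All 5 WT livers of 5 months lay below all 5 of 3 months for 7 of the 12 probes, against 6.03% of all probes. These 8 calls held, with the same direction, whichever of the 20 mice was left out, and the share of all probes called lower was then 3.94% to 7.88%. The methods' t-test called 7 of the 8 after adjustment, without Hsp90b1. In KO livers limma called 0 of the 12, against 6.28% of all probes, with 1 of the 12 at an unadjusted p under 0.05, against 26.6% of all probes, and 0 called by the methods' t-test after adjustment. The KO median was -0.22, against an all-probe median of 0.14, and 3 of the 12 differences were above 0, against 65.2% of all probes. No 5-month KO group lay wholly below its 3-month group for any of the 12 probes, against 1.96% of all probes. All 5 KO livers of 5 months were above the pool for 4 of the 12 probes, against 26.6% of all probes, and all 5 WT livers of that age for 1 of the 12, against 30.1%.

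**Figure D2:**
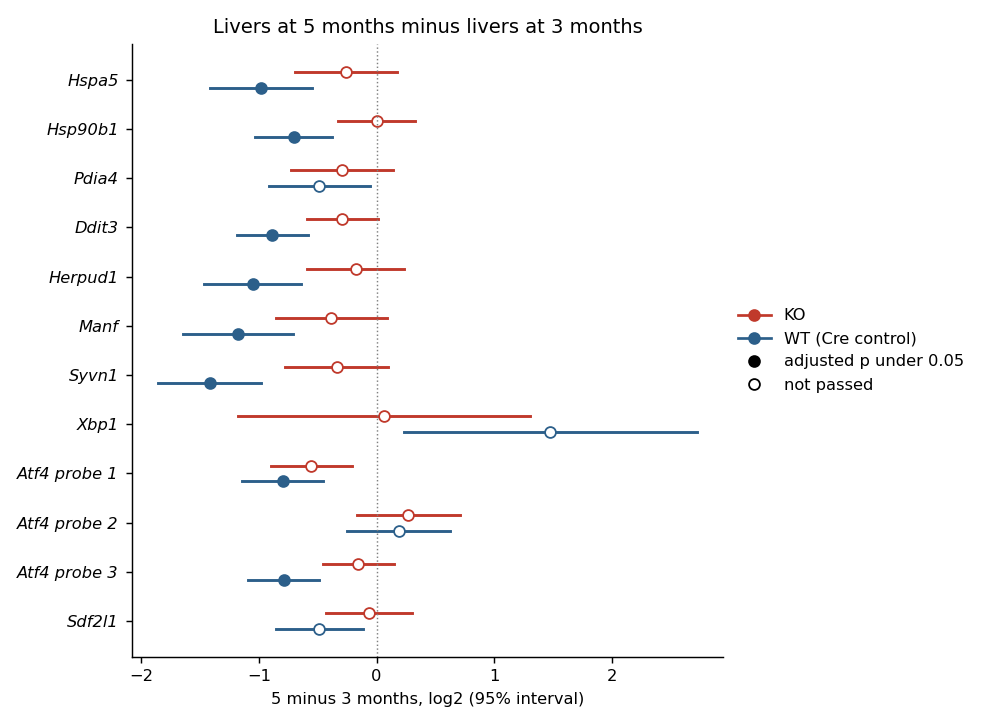
Differences of 5 minus 3 months on the log2 scale for the 12 probes, KO above WT, with 95% intervals and filled points where the limma adjusted p was under 0.05. The 8 filled points are all WT and lie between -1.42 and -0.70.

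Both dye orientations showed the decrease in WT livers. In liver-in-Cy5 arrays alone the WT differences were -1.10 for Hspa5, -1.20 for Manf and -1.59 for Syvn1. In liver-in-Cy3 arrays alone they were -0.87, -1.15 and -1.25 for the same genes. For the 8 probes above the pool in all 10 livers of 3 months, group means were above 0 in each orientation, but their size differed. Hspa5 had 3-month KO means of 1.15 in Cy5 and 0.88 in turned Cy3 arrays, and WT means of 1.39 and 1.00. Others came closer to the pool in turned Cy3 arrays. In the same order, KO means were 0.68 and 0.16 for Hsp90b1 and 0.39 and 0.047 for Atf4 probe 3. WT means were 1.155 and 0.26 for Pdia4, while Atf4 probe 3 was at 0.31 in both. Atf4 probe 1 depended on the dye, since its WT difference was -1.36 in Cy5 and -0.24 in Cy3 arrays. With the unsettled array of 5-month WT mouse 4 left out, the differences were -0.94 for Hspa5 and -1.38 for Syvn1, and with its sign turned they were -0.91 and -1.22. Turning it ended the call of Atf4 probe 1 (-0.55).

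At 5 months KO livers had higher values than WT livers for 11 of the 12 probes, Xbp1 being the exception, but limma called 0 of the 12, against 0.112% of all probes. Differences above 0 made up 52.3% of all probes. An unadjusted p under 0.05 was found for 8 of the 12, against 10.4% of all probes in either direction. Of these 8, Xbp1 was lower in KO livers, at -1.26, and the others were higher. The methods' t-test called 0 after adjustment. The median difference was 0.39, against 0.014 over all probes. Syvn1 differed by 0.75 ± 0.21 (95% interval 0.31 to 1.19, adjusted p = 0.204). Hsp90b1 differed by 0.63 ± 0.16 (0.30 to 0.96, adjusted p = 0.135), and without 5-month WT mouse 3 it passed at 0.77 (adjusted p = 0.0254). With quantile normalisation Syvn1 (1.29, adjusted p = 0.0322), Hsp90b1 (0.91, adjusted p = 0.0418) and Atf4 probe 3 (0.87, adjusted p = 0.0311) passed. That setting called 687 of all 36607 probes, against 41 as reported. As fitted, Syvn1, Hsp90b1, Hspa5, Herpud1, Ddit3, Sdf2l1 and Atf4 probe 3 each had 5 of 5 KO livers above the WT mean. How many of all probes did so was not counted. Herpud1 differed by 0.62 ± 0.20, Hspa5 by 0.55 ± 0.21 and Atf4 probe 3 by 0.54 ± 0.14 (adjusted p = 0.279, 0.359 and 0.189). Sdf2l1 at 0.42, Ddit3 at 0.37, Manf at 0.29 and Pdia4 at 0.24 were smaller.

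**Figure D3:**
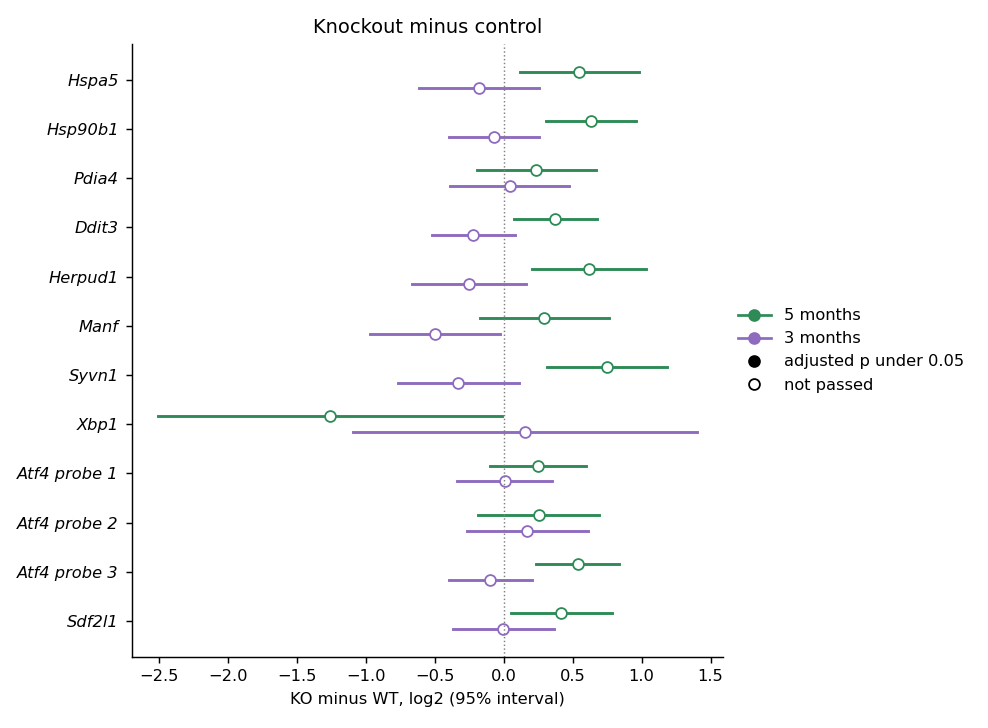
Differences of KO minus WT livers on the log2 scale for the 12 probes at 5 months (upper of each pair) and 3 months (lower), with 95% intervals. All points are open because no probe passed, and at 5 months 11 of 12 points lie above 0.

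The 5-month KO values split by array series. For 7 of the 12 probes all 3 KO livers of series B were above both KO livers of series A, against 10.1% of all probes. All 3 of series B were above all 5 WT livers for 6 of the 12, against 6.35% of all probes, and both of series A for 2 of the 12, against 10.8%. The median over the 12 probes was 0.10 and -0.014 in KO mice 1 and 2 of series A, and 0.61, 0.30 and 0.48 in KO mice 3, 4 and 5 of series B. In the 5-month WT mice, all of series A, it was 0.0025, -0.20, 0.094, -0.47 and -0.25. Within series A the KO minus WT difference was 0.10 for Hspa5, 0.37 for Hsp90b1, 0.38 for Syvn1 and 0.45 for Herpud1. Pdia4 and Manf changed sign there, at -0.20 and -0.11, while Atf4 probe 3 stayed at 0.53. With the 3 KO livers of series B alone the differences were 0.84 for Hspa5 and 1.00 for Syvn1. The part of the series in the 5-month differences was not tested further, since series B holds no WT liver.

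At 3 months the genotypes lay close together. Limma called 0 of the 12 probes, against 0.071% of all probes, with 1 of the 12 at an unadjusted p under 0.05 and 0 called by the methods' t-test after adjustment. That unadjusted share was 8.47% over all probes. The median difference was -0.086, and 4 of the 12 were above 0, against 45.5% of all probes. Manf had the largest, at -0.50 ± 0.23 (95% interval -0.97 to -0.029, adjusted p = 0.557), with -0.017 within series C and -0.91 within series D. For Hspa5 the interval of the difference was -0.61 to 0.26, and for Hsp90b1 it was -0.40 to 0.25.

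The 5-month minus 3-month genotype difference, which tests whether the time change differed between KO and WT livers, was called for 0 of the 12 probes and for 0% of all probes. An unadjusted p under 0.05 was found for 7 of the 12, all with a positive sign, against 8.06% of all probes in either direction and 5.96% with a positive sign. The median was 0.61, against 0.06 over all probes. Syvn1 gave 1.08 ± 0.30 (adjusted p = 0.411), Herpud1 0.88 ± 0.28 and Hspa5 0.73 ± 0.29. A different time change in KO livers was therefore not shown for any of these genes.

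Mice of one group that were high in Hspa5 tended to be high in some of the other members. With group means removed, Hspa5 correlated across the 20 mice with Hsp90b1 at r = 0.833, with Manf at 0.76, with Pdia4 at 0.744 and with Syvn1 at 0.711, and 0.0082% to 0.175% of all probes correlated higher than these. It correlated with Ddit3 at 0.506 and with Atf4 probe 3 at 0.435, against which 3.22% and 6.05% of all probes were higher. The remaining probes did not stand out, with Atf4 probe 2, Herpud1, Sdf2l1, Xbp1 and Atf4 probe 1 at 0.300, 0.289, 0.265, 0.188 and 0.108, and 15.1% to 37.1% of all probes higher. The mice share array series and dye corrections, so these are descriptions with no test. Over all probes with a symbol, the 5 most like Hspa5 by this measure were Creld2 (0.867), a chaperone-like protein, Qtrt2 (0.863), a subunit of a tRNA-modifying enzyme, Hsp90b1, the odorant receptor gene Olfr1448 (0.823) and Anp32a (0.808), a nuclear phosphoprotein.

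Other genes of the pathway were described from 6 further lists with 134 probes. Between 5 and 3 months in WT livers the translocon and signal peptide processing genes, which move new proteins into the endoplasmic reticulum, had 12 of 26 probes lower and 0 higher (10 genes, median -0.43), against 7.35% of all probes lower. Sec61g and Sec61b, subunits of the translocation channel, fell by 1.37 ± 0.22 and, by one probe, 1.02 ± 0.19, and Spcs2, of the signal peptidase, by 0.92 ± 0.16. Both probes of Ssr4, of a complex next to the channel, fell by 0.82 and 0.88. The calls of Sec61a1 (-0.52), Sec62 (-0.46), Srprb (-0.60 on 1 of 3 probes), Spcs1 (-0.57) and a further Sec61b probe (-0.65) ended when certain single mice were left out, and those of Ssr2 (-0.55) and Sec63 (-0.53 on 1 of 4 probes) did not. Other chaperones had 5 of 17 probes lower and 1 higher (median -0.26). Fkbp2 and Ppib, which are prolyl isomerases, fell by 0.71 and 0.67, and Sdf2 by 0.54. Creld2 was at -1.05 ± 0.33, a call that ended without any of 7 mice. Dnajb9, a BiP co-chaperone, gave -1.30 ± 0.25 by one probe and 0.59 ± 0.19 by another, and the positive call ended without any of 14 mice.

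The sensor list had 2 of 16 probes lower and 1 higher in WT livers (median 0.18), against 2689 of all 36607 probes lower and 2918 higher. Eif2ak3, encoding PERK, fell by 0.69 ± 0.13 and Ern1, encoding IRE1, by 0.66 ± 0.11 on one probe, while the other Ern1 probe was at 0.37 ± 0.19 (adjusted p = 0.183). Mbtps1, encoding the protease that activates ATF6, was at 1.18 ± 0.39 on 1 of 3 probes, a call that ended without any of 12 mice, and at 0.063 and 0.13 on the others. Degradation genes had 2 of 30 probes lower (median -0.18), a share near that of all probes. They were 1 of 2 probes of Selenos at -0.96 ± 0.17 (the other at -0.57) and 1 of 2 of Edem1 at -0.60 ± 0.16 (the other at -0.16), and the call of Edem1 ended without 5-month WT mouse 1 or 4. Disulfide isomerases and oxidases had 0 of 12 called by limma, with 2 at an unadjusted p under 0.05, against 33.0% of all probes (median -0.21). ATF4 and CHOP targets had 0 of 33 lower and 2 higher (median 0.19), against 2918 of all 36607 probes higher. The 2 were Phgdh of serine synthesis at 1.17 ± 0.25 and 1 of 3 probes of Slc7a11, a cystine transporter, at 0.85 ± 0.24 (the others at 0.35 and 0.44). Over these lists 25 of the 134 probes were called in WT livers, against 15.3% of all probes. Of the 25, 15 kept their call whichever mouse was left out.

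**Figure D4:**
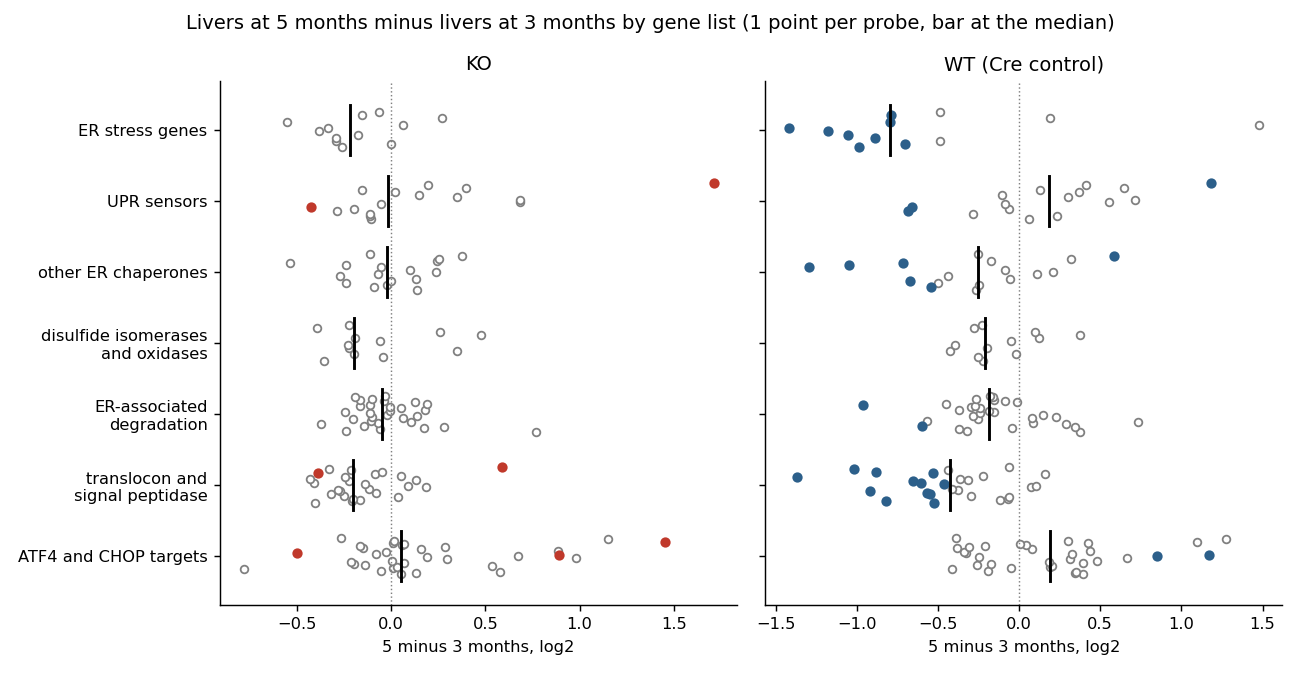
Differences of 5 minus 3 months on the log2 scale by gene list, KO on the left and WT on the right, with 1 point per probe, filled where the limma adjusted p was under 0.05 and with the bar at the list's median. In WT livers the endoplasmic reticulum stress genes (median -0.79) and the translocon genes (-0.43) lay farthest below 0.

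In KO livers 7 of the 134 probes were called between 5 and 3 months, which is no more than the 6.28% of all probes, and each call ended without at least 1 mouse. Lower were the probe of Aars, an alanyl-tRNA synthetase gene (-0.50), 1 of 2 probes of Ern1 (-0.43, the other at 0.018) and 1 of 4 of Sec63 (-0.39, the others at -0.43 to -0.20). Higher were Phgdh (0.89), 1 of 2 probes of the serine synthesis gene Psat1 (1.45, the other at 0.29), and 1 of 3 probes each of Mbtps1 and Srprb. The probes of Mbtps1 disagreed, at 1.71, -0.11 and -0.16, and so did those of Srprb, at 0.59, -0.41 and -0.28.

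Between genotypes limma called 0 of the 134 probes at 5 months, with 24 at an unadjusted p under 0.05, against 10.4% of all probes. It called 0 at 3 months, with 9 at an unadjusted p under 0.05, against 8.47% of all probes. Asns, the asparagine synthetase gene and an ATF4 target, had the largest differences of these lists at both ages, on both of its probes. They were 1.16 ± 0.46 and 0.96 ± 0.31 at 5 months (SE, limma adjusted p = 0.387 and 0.279), and 1.50 ± 0.46 and 0.94 ± 0.31 at 3 months (adjusted p = 0.291 and 0.329). Its differences between the ages were 0.053 and 0.059 in KO livers and 0.39 and 0.040 in WT livers. The list medians of KO minus WT at 5 months ran from -0.048 for the sensors to 0.23 for the translocon genes. Edem2, which trims sugars on misfolded glycoproteins, came nearest to the threshold at 5 months, at 0.59 ± 0.13 (SE, limma adjusted p = 0.0848). Sec61g gave 0.79 ± 0.22 and Sec62 0.44 ± 0.13. Dnajb9 gave 0.77 by 1 probe, while another of its probes had means of -0.060 in KO and 0.0002 in WT livers. The BiP co-chaperone gene Dnajc3 gave 0.38. Pdia3, an isomerase of glycoproteins, gave 0.54 and P4hb, a further disulfide isomerase gene, 0.24. Eif2ak3 gave 0.43, a probe of Ern1 0.25 and Edem3 -0.63, and none of these passed. At 3 months a probe of Srprb gave -0.49 ± 0.13 (limma adjusted p = 0.166) and a probe of Selenos -0.51. The lectin chaperone gene Calr gave -0.60, Ppib -0.41 and Derl2, of the export channel for misfolded proteins, -0.39. Pdia3 gave -0.24, the disulfide oxidase gene Ero1a 0.33, Sec63 0.32, Ern1 0.21 and Mbtps1 0.17, each by 1 probe, and none of these passed either.

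Cell type markers moved with the age contrast in part. The mean over 8 hepatocyte marker probes ran from 0.036 to 0.241 in 5-month KO livers and from -0.544 to 0.121 in 5-month WT livers. At 3 months it ran from 0.11 to 0.33 in KO livers and from 0.161 to 0.246 in WT livers. In WT livers 2 of these 8 probes were lower at 5 than at 3 months, as were 2 of 9 for Kupffer cells and macrophages, 3 of 10 for endothelial cells and 4 of 15 for stellate cells and fibroblasts, and 2 of 6 neutrophil probes were higher. Over the 9 marker lists 11 of 68 probes were lower in WT livers, against 7.35% of all probes. There 2 of the 68 were higher, against 2918 of all 36607 probes. In KO livers 1 neutrophil probe was higher and 1 stellate cell and fibroblast probe lower, with 6.28% of all probes called in either direction. Limma called 0 of the 68 between genotypes at either age, with 17 at an unadjusted p under 0.05 at 5 months, against 10.4% of all probes, and 1 at 3 months, against 8.47%. The part of these cell types in the changes above was not tested.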

How the data were processed

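Per the labels' protocols and the series' design text, total RNA was labelled in both dye orientations, scanned arrays were normalised by the authors to the 50th percentile of median signal, and the deposited values are log2 ratios per probe. Background handling and which dye is the numerator were not given in these sources. Arrays with the liver in Cy3 were turned, and each mouse's arrays averaged. For the 2 mice with 1 array, the probe's dye effect was taken from the 8 mice of the same age with both orientations. Probes were compared with limma 3.58.1 (lmFit, eBayes) in R 4.3.3 over 20 mice in 4 groups, with Benjamini-Hochberg adjustment over 36607 probes and a threshold of 0.05. The fit was run on simulated arrays with a fixed dye effect per probe and without array noise or series effects, so those were not tested. Nothing says that mice are from separate litters, so p-values measure the spread between these mice.

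The members and lists were chosen with earlier results of these data known. All member probes are named, with the 2 probes of smallest p for KO minus WT at each age in every other list, any called probe, and the 5 probes most like Hspa5. The methods' t-test was run without the random variance model that the methods name. Replicate numbers did not pair the mice (r of same-numbered mice -0.277 to 0.189). Alternatives covered centring, quantile normalisation, array series, dye orientation, the unsettled array and each mouse left out. Chosen after seeing the data were the dye effect from both ages and series B alone.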

Additional observations from a re-analysis of the deposited data

Results flagged for a closer look

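Of 48 groups of 5 mice examined, 3 held a mouse far from the other 4, by Dixon's 95% critical value of 0.71, and chance alone gives about 1 in 20. Herpud1 was at 1.48 in 5-month KO mouse 3, which has a single array, and the nearest KO liver was at 0.61. Ddit3 was at -0.13 in 5-month KO mouse 2, also with a single array, against 0.035 in the nearest KO liver. Atf4 probe 3 was at 0.77 in 3-month WT mouse 5, against 0.27 in the nearest WT liver. Without the 2 mice with 1 array, the 5-month KO minus WT difference was 0.45 for Herpud1 and 0.41 for Ddit3.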

How the results depend on the processing

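Ratios without brightness allow no filter on dim probes, and 5 mice per group limit what can be called. With Cy3 arrays not turned 2 probes were called lower in WT livers, of which 1 (Atf4 probe 1) was among the 8 as reported and the other was Pdia4. Of all probes 782 were then called lower. The methods' t-test called 5 of the 8 at an unadjusted p under 0.001 and 7 after adjustment, with 1192 and 2519 of all probes. Median centring, quantile normalisation and Cy5 arrays alone each called 10, the 8 with Pdia4 and Sdf2l1 or, in Cy5 arrays, with Pdia4 lower and Xbp1 higher. Of all 36607 probes in WT livers they called 6423, 8316 and 17546 in that order, against 5607 as reported. Cy3 arrays alone called 8, with Sdf2l1 in place of Atf4 probe 1, and 5699 of all probes. Quantile normalisation called 3 probes between genotypes at 5 months, against 0 as reported, and 687 of all probes, against 41 as reported. Between ages in KO livers 1 probe was called, against 0 as reported, under median centring, quantile normalisation, Cy5 arrays alone and without the Cy5 array of 5-month WT mouse 4. These settings in that order called 2245, 1874, 10207 and 2741 of all probes, against 2299 as reported. The median over the 12 probes changed under quantile normalisation to 0.88 for the difference of time changes (0.61 as reported) and -1.21 for WT livers (-0.79 as reported). With Cy3 arrays not turned it was 0.10, -0.049 and, for genotypes at 5 months, 0.19 (0.39 as reported). Leaving out 1 mouse gave medians of 0.29 to 0.46 at 5 months, -0.11 to -0.075 at 3 months, 0.54 to 0.68 for the difference of time changes, -0.31 to -0.16 in KO livers and -0.85 to -0.73 in WT livers. The counts were then 0 to 1, 0 to 0, 0 to 0, 0 to 1 and 8 to 9 in that order.

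With Cy3 arrays not turned, signs changed for KO minus WT at 5 months in Dnajc3 (-0.10), Dnajb9 (-0.11), Sec62 (-0.17), Sec61g (-0.066), Asns (-0.16), Xbp1 (0.19) and Sdf2l1 (-0.0053), and at 3 months in Ern1 (-0.17), Calr (0.13), Derl2 (0.035), Asns (-0.087) and Manf (0.16). They changed for the difference of time changes in Hsp90b1 (-0.075), Atf4 probe 3 (-0.15) and Sdf2l1 (-0.16), and between ages in KO livers in Mbtps1 (-0.14) and Aars (0.017). In WT livers they changed in Dnajb9 (0.092 and -0.078), Edem1 (0.13), Ssr4 (0.053 and 0.089), Spcs1 (0.19), Sec62 (0.16), Srprb (0.022), Slc7a11 (-0.38) and Sdf2l1 (0.082). With array series as a covariate, and within series A, Pdia4 gave -0.20 and Manf -0.11 at 5 months. Within series C, Ern1 gave -0.11 and Pdia3 0.056 at 3 months. With Cy3 arrays alone, Atf4 probe 1 gave -0.12 at 5 months, and the difference of time changes was -0.11 for Pdia4, -0.12 for Atf4 probe 1 and -0.17 for Atf4 probe 2. In KO livers Sec63 then gave 0.075 and Srprb -0.15. Quantile normalisation gave -0.080 for Atf4 probe 2 in WT livers. With the sign of the unsettled array turned, Ern1 gave -0.064 at 5 months and Atf4 probe 1 -0.0005 for the difference of time changes. For Atf4 probe 2 that difference was -0.16 without the 2 mice with 1 array, and -0.10 to 0.21 with 1 mouse left out, below 0 without 3-month KO mouse 1 or 5-month KO mouse 3. The cause was not tested, beyond what leaving arrays unturned does by construction.

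Over all probes limma called 41 at 5 months, 26 at 3 months, 0 for the difference, 2299 in KO and 5607 in WT livers. With 1 mouse left out these were 10 to 100, 0 to 76, 0 to 1, 417 to 3772 and 2350 to 6720, the KO count lowest without 5-month KO mouse 2 and the WT count lowest without 5-month WT mouse 4, and without both mice with 1 array the KO count was 13. Quantile normalisation gave 687 and 0 between genotypes, series as a covariate 3 and 51, the dye effect from both ages 53 and 13, and the sign of the unsettled array turned 9 and 1, with 1941 in WT livers. Cy3 arrays alone gave 0 and 2 between genotypes and 5 in KO livers, and Cy5 arrays alone 2 and 2, with 10207 in KO and 17546 in WT livers. Series as a random block gave 1152 in KO and 2857 in WT livers. Centring on array medians changed the split of higher and lower calls to 932 and 1313 in KO livers (1975 and 324 as reported) and to 1612 and 4811 in WT livers (2918 and 2689 as reported). The replicate block, for numbers that do not pair the mice, gave 13 and 4 between genotypes, and 0.39 for the median over the 12 probes at 5 months.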
